A study of Mus musculus with 8 samples.

Results

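The 10 genes described here encode the Fos, Jun and Egr families of immediate early transcription factors: Fos, Fosb and Fosl2, then Jun, Junb and Jund, then Egr1, Egr2, Egr3 and Egr4. They were taken by symbol from a table of read counts, with no threshold on their values, and all 10 were among its 14765 genes. The choice was made with earlier results of these data known. The table holds poly(A) RNA sequencing of whole PrL tissue from C57 mice. PrL is read here as prelimbic cortex, a medial prefrontal area. One group of 4 libraries is labelled SNI, the usual abbreviation of spared nerve injury, a surgical model of neuropathic pain, and the other 4 are labelled Sham. All 8 share the strain and the tissue. The labels used here give no age, sex, time after surgery or handling before tissue collection, and do not say whether each library is a separate mouse, so every p-value below measures the spread between these libraries.

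Immediate early genes are transcribed within minutes of a stimulus, without new protein synthesis, because the factors that switch them on (CREB and the SRF and Elk complex) are already bound or ready and are activated by calcium and MAP kinase signalling. Fos and Jun proteins pair through leucine zippers to form the AP-1 dimers, and Egr proteins bind GC-rich DNA through zinc fingers. In cortex their transcripts are widely used as a record of recent neuronal activity, and they are short-lived, so their level in a dissected tissue reflects the period just before collection.

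Promoter sequence is shown for the 5 genes whose levels in SNI lay highest above sham (Egr2, Fosb, Junb, Fos and Egr4). Letters that match the CREB and SRF motifs, where present, can then be seen beside the values. The windows are the 250 bases before the RefSeq start (GRCm38.p6), printed 5′ to 3′ on the gene's strand. Fos lies at chr12:85473640-85473889 (plus strand), Fosb at chr7:19310046-19310295 (minus), Junb at chr8:84978749-84978998 (minus), Egr2 at chr10:67537619-67537868 (plus) and Egr4 at chr6:85513590-85513839 (minus). Capitals mark matches to the motifs named after the sequences.
Fos: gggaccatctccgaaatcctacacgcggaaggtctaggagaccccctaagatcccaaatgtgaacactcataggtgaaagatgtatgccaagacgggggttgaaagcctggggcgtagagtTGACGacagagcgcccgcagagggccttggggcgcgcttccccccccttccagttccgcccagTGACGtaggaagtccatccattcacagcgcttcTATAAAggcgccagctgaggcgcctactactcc
Fosb: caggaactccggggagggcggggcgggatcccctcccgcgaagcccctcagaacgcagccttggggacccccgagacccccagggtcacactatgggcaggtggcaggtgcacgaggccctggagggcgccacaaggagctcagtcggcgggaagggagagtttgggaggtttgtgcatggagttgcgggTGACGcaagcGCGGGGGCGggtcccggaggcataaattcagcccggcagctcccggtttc
Junb: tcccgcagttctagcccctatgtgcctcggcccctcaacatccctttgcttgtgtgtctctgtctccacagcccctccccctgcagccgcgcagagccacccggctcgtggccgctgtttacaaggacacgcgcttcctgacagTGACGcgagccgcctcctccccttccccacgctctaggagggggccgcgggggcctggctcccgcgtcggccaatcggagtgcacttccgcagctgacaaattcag
Egr2: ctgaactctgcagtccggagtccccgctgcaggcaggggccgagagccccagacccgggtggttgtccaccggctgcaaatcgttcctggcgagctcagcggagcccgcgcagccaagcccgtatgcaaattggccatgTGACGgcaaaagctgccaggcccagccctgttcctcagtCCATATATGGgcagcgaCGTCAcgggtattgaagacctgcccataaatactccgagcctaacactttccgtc
Egr4: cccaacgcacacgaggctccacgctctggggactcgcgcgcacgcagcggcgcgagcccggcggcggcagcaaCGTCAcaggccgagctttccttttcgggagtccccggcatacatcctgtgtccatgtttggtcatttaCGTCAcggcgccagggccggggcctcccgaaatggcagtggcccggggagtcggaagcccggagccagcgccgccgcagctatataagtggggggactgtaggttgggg

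Motifs were searched on both strands except TATAAA, which was searched on the gene's strand. RefSeq windows matched 8 of the 10 symbols, and 6 of these genes had a window starting within 100 bases of a GENCODE principal transcript: the 5 shown and Jun. TGACG, the core of the cAMP response element that CREB binds, was in 5 of the 6 windows, all but that of Jun. The 5 shown were picked by their group differences and leave only Jun beside them. Any relation of the motif to those differences was therefore not tested. It was in 25.0% of the 13989 windows of genes tested here. The 2 shares are not like for like, since those windows were not limited to principal starts. The 6 windows were also 58.4% (Fos) to 68.8% (Fosb) G and C, against a median of 52.4% over all 32851 windows. Fos holds TGACG 2 times, ending 125 and 62 bases before the start, and Egr2 and Egr4 also hold it 2 times each. The CArG box, the SRF motif, was in 1 of the 6 windows, that of Egr2, 72 to 63 bases before the start, against 1.2% of the windows of tested genes. GCGNGGGCG, the Egr motif, was in that of Fosb alone among the 6 (8.83% of tested genes' windows), and TATAAA in that of Fos alone (3.86%). The full element TGACGTCA, which contains the core on each strand (2.47%), and the AP-1 motif TGANTCA (4.47%) were in 0 of the 6. A match here is a run of letters, not evidence of binding, and more distal elements lie outside the windows.

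Some facts of the whole table bear on every comparison of the groups. The libraries held 14735602 to 19602487 counts, and Slc17a7, the vesicular glutamate transporter of cortical excitatory neurons, was at 1843 CPM on average in sham (CPM are counts-per-million values, with library size scaled by TMM). Cx3cr1, the fractalkine receptor gene of microglia, was at 44.8, 51.8, 55.3 and 52.8 CPM in Sham replicates 1 to 4 and at 2.23, 1.54, 2.13 and 1.81 CPM in SNI replicates 1 to 4 (edgeR adjusted p = 2.41e-12). Other microglia markers did not share this, since Tmem119 and P2ry12 rose. The labels give both groups the same strain, and whatever sets Cx3cr1 apart cannot be told apart from the injury in these 8 libraries.

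No Fos, Jun or Egr gene passed the test between SNI and sham. Of the 10, 0 were called higher and 0 lower at a false discovery rate of 0.05 in edgeR's quasi-likelihood test, where 5.02% of the 13911 genes tested were called (2.15% higher, 2.87% lower). Scaling by library totals in place of TMM turned the split of all calls from 299 higher and 399 lower to 446 higher and 276 lower. At an unadjusted p under 0.05, 4 of the 10 were higher (Fos, Fosb, Junb and Egr2) and 0 lower. Over all genes tested, 10.3% were higher at that level and 21.1% passed it in either direction. DESeq2, which called 503 higher and 650 lower over all genes, called 0 of the 10. Limma voom with quality weights called 2, Fos and Fosb. The share of all genes that voom called is not given here, so its 2 cannot be set against it. The groups did not fully separate for any of the 10, where 12.7% of all genes tested had no overlap (5.64% with SNI above, 7.02% below). The median log2 fold change of the 10 was 0.15, against 0.011 for all genes tested. In whole tissue, fewer cells carrying a transcript and less of it per cell cannot be told apart.

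**Figure D1:**
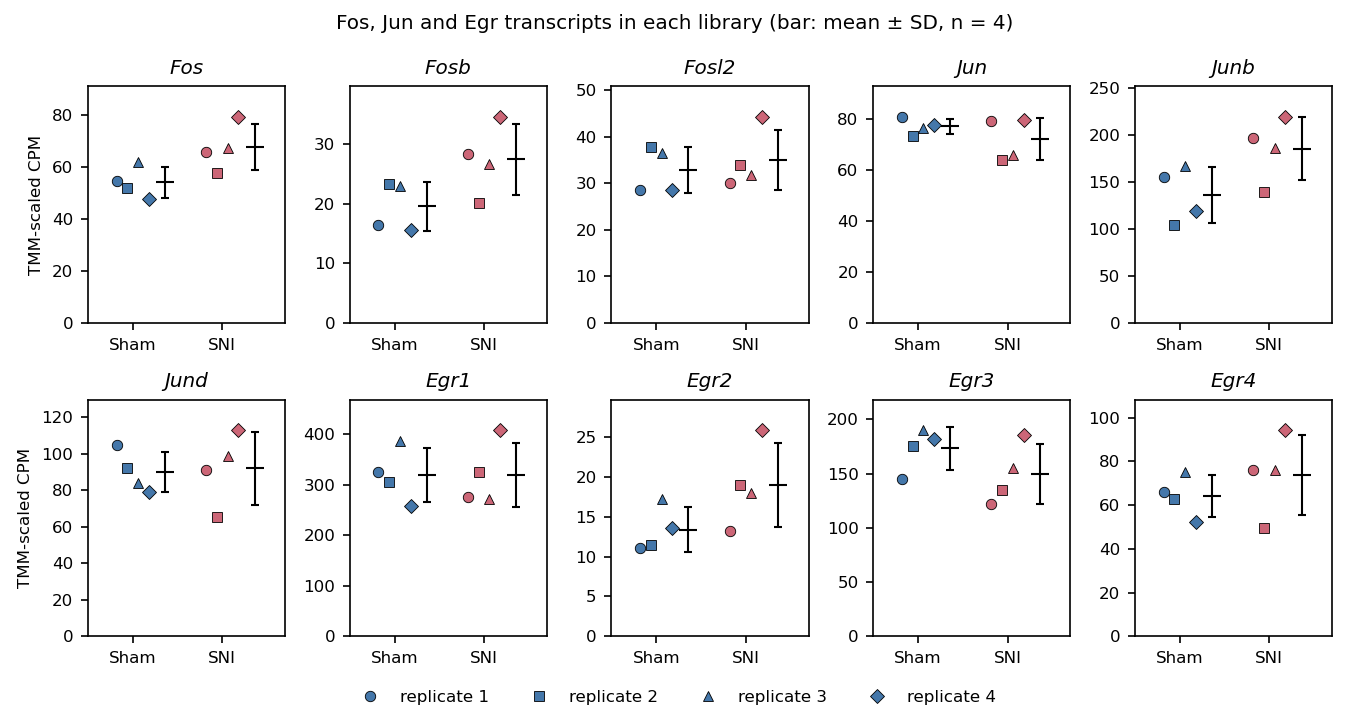
Level of each gene in each library, in TMM-scaled CPM on a linear axis from 0, with Sham in blue, SNI in red and marker shape giving the replicate. Black bars are the mean ± SD of 4 libraries. SNI replicate 4 (red diamond) was the highest of the 8 libraries for 8 of the 10 genes, and the groups overlapped for all 10.

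Fos, the founding member of the family and the usual marker of recently active neurons, was at 54.9, 52.0, 62.1 and 47.8 CPM in Sham replicates 1 to 4. In SNI replicates 1 to 4 it was at 65.9, 58.0, 67.4 and 79.4 CPM. The groups overlapped by 1 library, SNI replicate 2, which lay below Sham replicate 3. The log2 fold change was 0.32 ± 0.102 (SE; 95% interval 0.10 to 0.54), or 1.25-fold, with an adjusted p of 0.0854 from edgeR. Without SNI replicate 2 the log2 fold change was 0.39 and the adjusted p 0.0432, and without SNI replicate 4 they were 0.23 and 0.201. Library totals as scaling gave an adjusted p of 0.0404. In GRCm38 Fos occupies chromosome 12 from 85473890 to 85477273, and no other annotated gene overlaps it.

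Fosb encodes FosB and, by alternative splicing, the truncated and long-lived ΔFosB, which the count per gene does not separate. It was at 16.4, 23.3, 23.0 and 15.7 CPM in Sham replicates 1 to 4 and at 28.4, 20.2, 26.7 and 34.6 CPM in SNI replicates 1 to 4. SNI replicate 2 again lay inside the sham range, and the other 3 SNI libraries lay above all sham libraries. SNI exceeded sham by a log2 fold change of 0.49 ± 0.171 (SE; 95% interval 0.12 to 0.85), with an edgeR adjusted p of 0.124. The adjusted p was 0.0495 without SNI replicate 2 and 0.236 without SNI replicate 4.

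Fosl2, or Fra-2, is a Fos relative that lacks a strong transactivation domain. It was at 28.5, 37.8, 36.5 and 28.6 CPM in Sham replicates 1 to 4 and at 30.1, 33.9, 31.7 and 44.2 CPM in SNI replicates 1 to 4. Sham split into a lower and a higher pair of libraries, with 3 of the 4 SNI values between them. The group difference was small, a log2 fold change of 0.092 ± 0.131 (SE; 95% interval -0.19 to 0.37, edgeR adjusted p = 0.731), and without SNI replicate 4 it was -0.041.

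Among the Jun genes, Junb, an AP-1 subunit that is a weaker activator than c-Jun, had the largest difference. It was at 155, 104, 167 and 119 CPM in Sham replicates 1 to 4 and at 197, 139, 186 and 220 CPM in SNI replicates 1 to 4. As for Fosb, SNI replicate 2 lay inside the sham range and the other 3 SNI libraries above it. The log2 fold change was 0.44 ± 0.169 (SE; 95% interval 0.070 to 0.82), with an edgeR adjusted p of 0.165. Junb overlaps the 3′ end of Prdx2 on the opposite strand by 351 bases, and the sources used here do not say that counting used strand, so its level is uncertain. Prdx2 itself had a log2 fold change of 0.0094 (edgeR adjusted p = 0.960).

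Jun, which encodes c-Jun, was the steadiest of the 10 genes. Its level was 80.7, 73.4, 76.6 and 77.4 CPM in Sham replicates 1 to 4 and 79.1, 64.0, 66.0 and 79.4 CPM in SNI replicates 1 to 4. SNI split into 2 libraries inside the sham range and 2 below it. SNI differed from sham by a log2 fold change of -0.096 ± 0.0863 (SE; 95% interval -0.28 to 0.088, edgeR adjusted p = 0.561).

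Jund, the Jun protein that is present without stimulation in many cell types, was at 105, 92.3, 84.0 and 79.1 CPM in Sham replicates 1 to 4 and at 91.3, 65.3, 98.6 and 113 CPM in SNI replicates 1 to 4. Its lowest and highest values were both in SNI, so the sham range lay inside that of SNI. On the log2 scale the fold change was 0.031 ± 0.146 (SE; 95% interval -0.29 to 0.35, edgeR adjusted p = 0.929), and -0.083 without SNI replicate 4. Antisense transcripts overlap Jun (Junos) and Jund (Gm11175), so both levels are uncertain if counting did not use strand. Neither antisense transcript is among the counted genes, whereas Prdx2, which overlaps Junb, is.

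The Egr genes moved in no common direction. Egr1, or Zif268, the most abundant of them and a factor long tied to synaptic plasticity, was at 325, 306, 387 and 258 CPM in Sham replicates 1 to 4 and at 275, 324, 271 and 408 CPM in SNI replicates 1 to 4. The groups had nearly the same mean, 319 ± 53.3 and 320 ± 63.4 CPM (SD, n = 4 libraries each). The log2 fold change was 0.0040 ± 0.143 (SE; edgeR adjusted p = 0.992), and its 95% interval, -0.31 to 0.31, leaves room for a difference of that size either way. Without SNI replicate 4 the log2 fold change was -0.14.

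Egr2, or Krox20, which besides its role in neurons drives myelination in Schwann cells, was the scarcest of the 10 in CPM. It was at 11.1, 11.4, 17.2 and 13.6 CPM in Sham replicates 1 to 4 and at 13.1, 18.9, 18.0 and 25.8 CPM in SNI replicates 1 to 4. SNI replicate 1 lay inside the sham range and the other 3 above it, so the library that overlapped was not the one that overlapped for Fos, Fosb and Junb. SNI stood above sham by a log2 fold change of 0.50 ± 0.191 (SE; 95% interval 0.092 to 0.92), with an edgeR adjusted p of 0.151. It was 0.64 with an adjusted p of 0.0381 without SNI replicate 1, and 0.32 with 0.296 without SNI replicate 4. With a striatal marker covariate it was 0.29, with an adjusted p of 0.770. That fit cannot separate the covariate from group, and it called none of the 10.

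Egr3, a zinc finger factor that neuronal activity induces and that muscle spindles need to develop, was one of 2 genes of the 10 with a lower mean in SNI. It was at 145, 175, 190 and 182 CPM in Sham replicates 1 to 4 and at 122, 135, 155 and 186 CPM in SNI replicates 1 to 4. SNI replicate 4 lay among the higher sham values, and SNI replicates 1 and 2 below all of sham. The log2 fold change was -0.21 ± 0.121 (SE; 95% interval -0.47 to 0.046, edgeR adjusted p = 0.333), and -0.34 without SNI replicate 4.

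Egr4, which mice need for male fertility and which is also induced in neurons, was at 66.0, 62.9, 75.2 and 52.2 CPM in Sham replicates 1 to 4 and at 75.9, 49.8, 76.0 and 94.2 CPM in SNI replicates 1 to 4. The lowest of the 8 values was in SNI replicate 2, and the other 3 SNI libraries lay above all of sham, by less than 1 CPM for 2 of them. This gave a log2 fold change of 0.21 ± 0.179 (SE; 95% interval -0.19 to 0.61, edgeR adjusted p = 0.553), and 0.067 without SNI replicate 4.

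**Figure D2:**
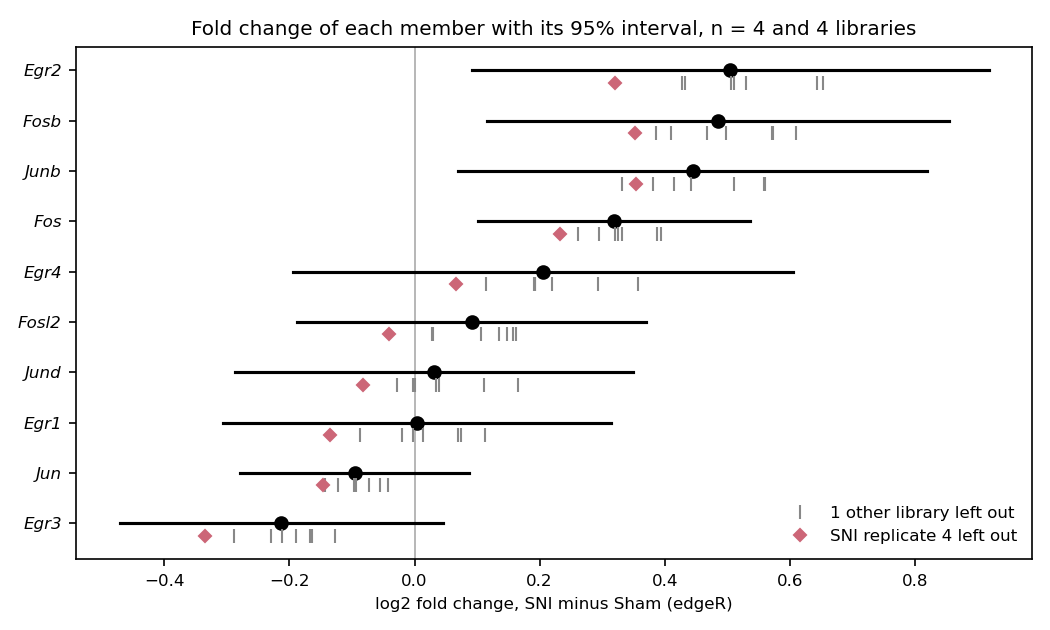
Log2 fold change of each gene, SNI minus Sham, from edgeR over 4 and 4 libraries (black point, with its 95% interval as a line). Below each, grey ticks give the value with 1 other library left out and the red diamond the value without SNI replicate 4, which for Egr1, Jund and Fosl2 lies on the other side of 0. The intervals of Egr2, Fosb, Junb and Fos lie above 0 before adjustment for 13911 genes.

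Set side by side per length, as CPM per kilobase of annotated exon, the 10 genes fell into a higher and a lower set. Egr1 (71.2 on average over the 8 libraries, range 57.5 to 90.9) and Junb (69.9, range 45.4 to 95.4) stood highest, followed by Jund (54.6), Egr3 (36.6), Egr4 (32.1), Fos (25.9) and Jun (23.4). Each of these overlapped its neighbour in the order over the 8 libraries. Jun (lowest library 20.1) did not overlap the next gene, Egr2, which averaged 4.75 with a highest library of 7.59. Egr2, Fosb (3.77) and Fosl2 (3.50) overlapped each other. The exon length of Fosb and Fosl2, 6243 and 9680 bases, counts every annotated exon, so a shorter form in use would raise their value.

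Libraries of 1 group differed more for these genes than for most genes of like abundance. The SD of log2 CPM within groups was 0.30 for Junb and 0.31 for Egr4, above 98.3% and 98.5% of the genes within 1 log2 unit of the same mean level. Jund, Egr1, Egr2, Fosb, Egr3 and Fosl2 were above 90.4% to 97.3% of theirs, Fos above 79.7% and Jun above 53%. Jun was thus the only one of the 10 near the median for its abundance. Without SNI replicate 4 the percentiles were 98.2 for Junb, 97.2 for Egr4, 63.2 for Fos and 42.8 for Jun, and from 73.4 to 94.8 for the other 6.

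**Figure D3:**
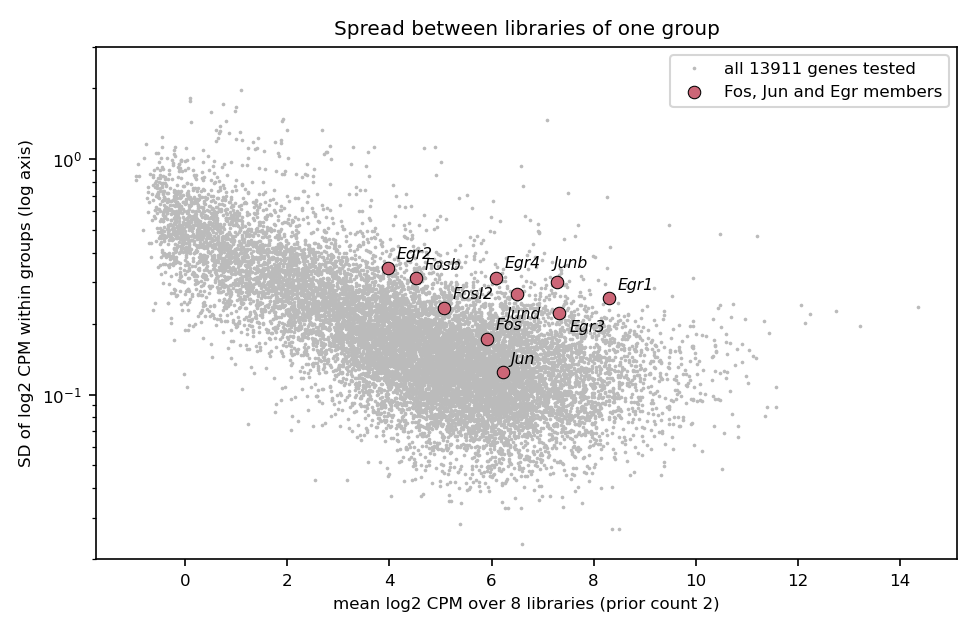
SD of log2 CPM within groups (log axis) against mean log2 CPM over the 8 libraries, for all 13911 genes tested in grey and the Fos, Jun and Egr genes in red. Junb and Egr4 sit above most genes of their abundance, with some genes higher still, and Jun in the middle.

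SNI replicate 4 stood highest and Sham replicate 4 lowest. Summed over the 10 genes, the level was 988, 939, 1118 and 873 CPM in Sham replicates 1 to 4 and 978, 909, 997 and 1283 CPM in SNI replicates 1 to 4. SNI replicate 4 held the highest value of 8 genes, and SNI replicate 2 the lowest of 3 (Jun, Jund and Egr4). Of the sham libraries, replicate 4 was the lowest of all 8 for 3 genes (Fos, Fosb and Egr1). Apart from SNI replicate 4, the sums of the SNI libraries lay inside the sham range.

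**Figure D4:**
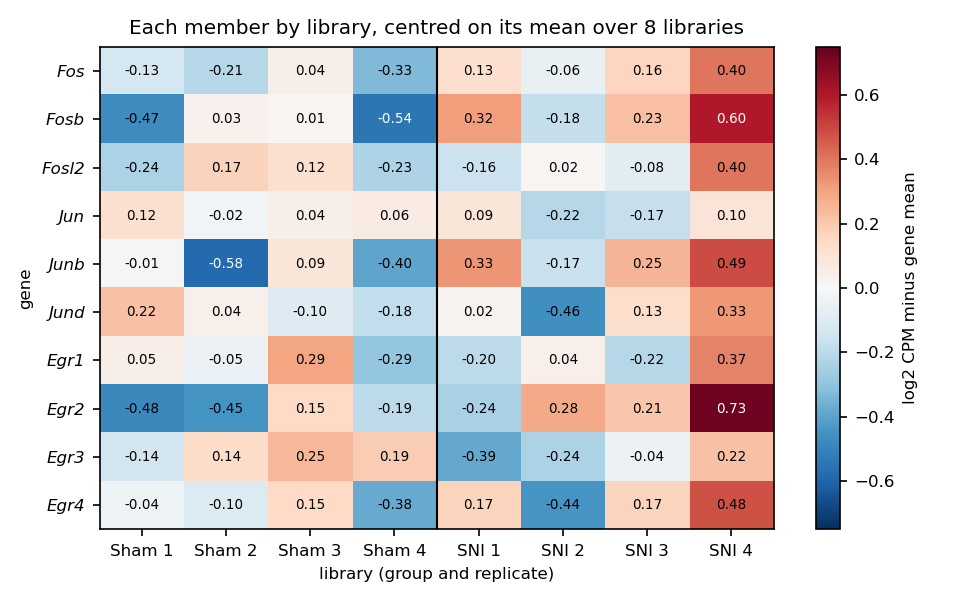
Log2 CPM of each gene (rows) in each library (columns), minus the gene's mean over the 8 libraries, with the value printed in each cell. The column of SNI replicate 4 is positive for all 10 genes, and the column of Sham replicate 4 is negative for 8.

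Across the 8 libraries, Fos varied most closely with Junb (Pearson r = 0.92 on log2 CPM, Spearman 0.93), Fosb (0.89 and 0.83) and Egr4 (0.84 and 0.86). It varied least with Jun (r = 0.018) and Egr3 (-0.049). These are descriptions over 8 points that share library depth and composition. Over the 45 pairs of the 10 genes the median r was 0.46 and 40 were positive, but without SNI replicate 4 the median was 0.13 and 29 were positive. The relation of Fos with Junb, Fosb and Egr4 rested less on that library, with r = 0.89, 0.81 and 0.73 without it, while that of Fos with Egr1 went from 0.51 to 0.13. Leaving out the 2 libraries farthest from the median of Fos gave 0.90, 0.68 and 0.60 for Junb, Fosb and Egr4, and -0.34 for Egr1. As deviations from the group means, Fos and Egr4 had r = 0.94, and Egr2 and Egr3 had 0.86 although their group differences had opposite signs.

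Among 11659 other genes with a mean log2 CPM of at least 2, those most like the mean profile of the 10 over the 8 libraries were Lman2l (r = 0.94), Zfp287 (0.92), Epn2 (0.91), Irs2 (0.91), Nrp2 (0.90) and Samd12 (0.90). Those most like Fos alone were Zfp287 (0.96), Ascc1 (0.96), N4bp3 (0.95), Neurl1b (0.95), Samd12 (0.95) and Rcor1 (0.94). None of these 10 genes passed the edgeR test between groups, with adjusted p from 0.142 (Irs2) to 0.864 (Lman2l). Without SNI replicate 4 the r of the 6 genes most like Fos was 0.90 to 0.95, and that of the 6 most like the mean profile 0.71 to 0.91. The genes were picked for the highest r among 11659 over these same 8 libraries. Such a choice gives high values by itself, and leaving out 1 library is no separate check of them.

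Around these genes, the share of regulators called was near that of all genes for 2 of the lists. All the lists were drawn up with earlier results of these data known. Their shares called therefore describe the lists and test nothing about regulators or targets in general. Of 28 upstream kinases, cofactors and factors, 2 rose and 0 fell (7.14% called against 5.02% of all genes tested, 3 higher and 5 lower at an unadjusted p under 0.05, median log2 fold change -0.050). Over all genes tested, 21.1% passed that unadjusted level in either direction. DESeq2 and limma voom called 1 and 2 of the 28 lower, where DESeq2 called 650 lower over all genes. Mapk3, the MAP kinase ERK1, rose from 183 ± 18.3 to 274 CPM on average (log2 fold change 0.58 ± 0.114 SE, edgeR adjusted p = 0.0110), and passed in each of the 19 alternative analyses. Rps6ka5, the kinase MSK1 that phosphorylates CREB and histone H3, rose from 20.2 ± 1.91 to 30.0 CPM (0.57 ± 0.0986 SE, adjusted p = 0.00522). It overlaps 3 annotated transcripts on its own strand, which counting may split. Camk4, a nuclear calcium-dependent kinase of CREB, had -0.33 and did not pass (0.0791).

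Of 16 other AP-1 family genes 14 were tested, 0 rose (also 0 by DESeq2 and by limma voom, and 0 at an unadjusted p under 0.05) and 1 fell (7.14% called, against 5.02% of all genes tested). Jdp2, a bZIP protein that dimerises with Jun and represses AP-1 targets, fell from 40.7 ± 1.94 to 30.2 CPM on average (log2 fold change -0.43 ± 0.0879 SE, edgeR adjusted p = 0.0125). Without Sham replicate 3 its adjusted p was 0.0510, and it overlaps Gm47863 on the opposite strand. Atf4 had -0.23 (adjusted p = 0.0788), and Atf3, which is induced by stress and injury and was near 1 CPM here, had 0.73 (0.311). The median of the 14 was 0.079. Over all genes tested, 10.3% were higher at an unadjusted p under 0.05.

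Of 20 feedback regulators, 2 rose and 1 fell (15% called, against 5.02% of all genes tested, median -0.035). At an unadjusted p under 0.05, 5 were higher and 5 lower, where 21.1% of all genes tested passed in either direction. Sik1, a salt-inducible kinase that holds back the CREB coactivators, rose from 11.7 ± 1.40 to 19.9 CPM on average (log2 fold change 0.76 ± 0.138 SE, edgeR adjusted p = 0.00640). Nab1, a corepressor that binds Egr proteins, rose by less (0.31, adjusted p = 0.0478) and lost the call when any library but SNI replicate 1 was left out (highest adjusted p 0.151). Dusp14, a MAP kinase phosphatase, fell from 86.8 ± 5.57 to 62.8 CPM (-0.47, adjusted p = 0.00661).

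Of 36 other immediate early genes, 3 rose and 0 fell (8.33% called, against 5.02% of all genes tested). At an unadjusted p under 0.05, 12 were higher and 0 lower, where 10.3% of all genes were higher. DESeq2 and limma voom called 6 and 5 of them higher and 0 lower. DESeq2 called 503 higher and 650 lower over all genes, and the share for voom is not given here. The 3 were Sik1 (also in the feedback list), Cyr61, a matricellular protein gene (log2 fold change 0.82, from 11.0 ± 2.78 to 19.4 CPM, edgeR adjusted p = 0.00982), and Gadd45b (0.39, adjusted p = 0.0444). The call of Gadd45b ended when any 1 of the 8 libraries was left out (highest adjusted p 0.131). The list's median was 0.18, and 26 of the 36 had a positive log2 fold change. Some neuronal activity genes are named here, picked after their values were seen. Arc, Npas4 and Nr4a1 had 0.31, -0.19 and 0.25 (edgeR adjusted p = 0.511, 0.516 and 0.331). Nr4a2 and Nr4a3, of the same family as Nr4a1, had 0.51 and 0.64 (adjusted p = 0.130 and 0.165). None of these passed.

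Of 22 genes described elsewhere as targets of AP-1 or Egr factors, 21 were tested, 0 rose and 4 fell (19% called, against 5.02% of all genes tested, median -0.13). DESeq2 and limma voom also called 0 of them higher. At an unadjusted p under 0.05, 1 was higher and 6 were lower, where 21.1% of all genes tested passed in either direction. The 4 called were Nptx2, a neuronal pentraxin (-0.76), Vgf, a neuropeptide precursor (-0.72), Bdnf, the neurotrophin (-0.67), and Dlg4, the postsynaptic scaffold PSD-95 (-0.37). Bdnf went from 43.8 ± 4.66 to 27.6 CPM on average (edgeR adjusted p = 0.0139). The groups did not overlap for any of the 4, where 7.02% of all genes tested had SNI below without overlap. As the 4 are named for passing the test, their lack of overlap is no separate result. An antisense transcript, Gm45346, overlaps Bdnf. The call of Dlg4 ended without Sham replicate 1, 2 or 3 or SNI replicate 3 (highest adjusted p 0.0766). The list mixes genes that these factors raise and genes that they lower.

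**Figure D5:**
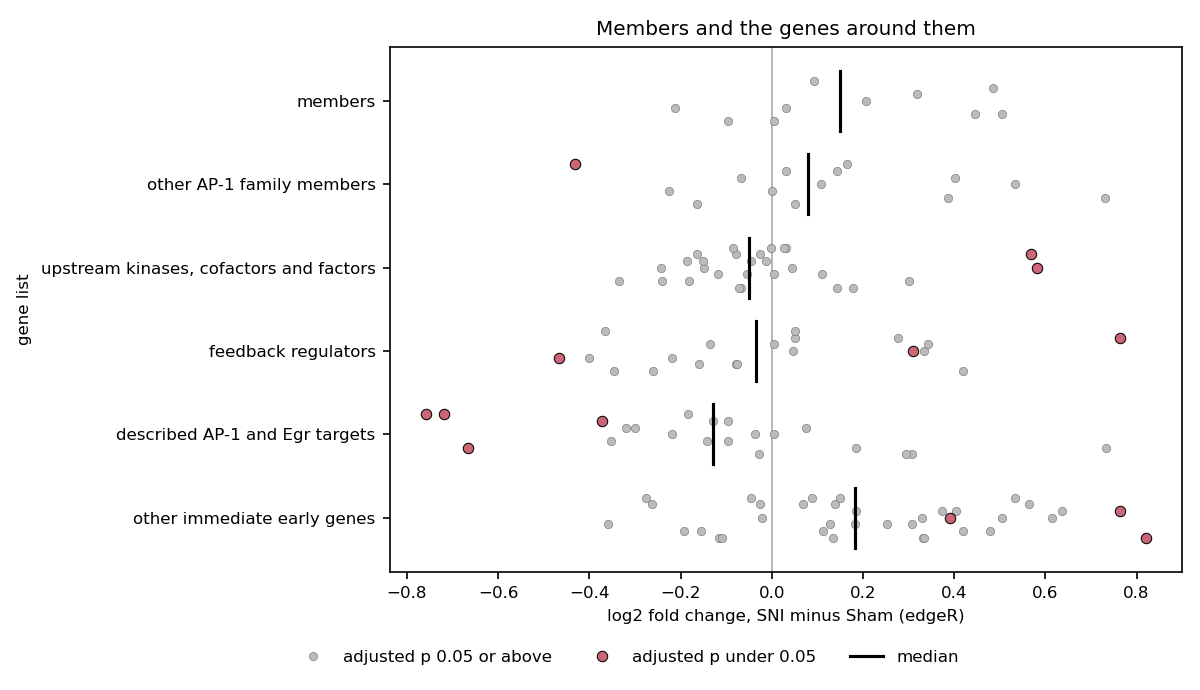
Log2 fold change, SNI minus Sham, of each tested gene in the Fos, Jun and Egr set and in 5 lists around it, with genes at an edgeR adjusted p under 0.05 in red and a black bar at each list's median. The Fos, Jun and Egr set holds no red point, and the 4 red points among the described targets all lie below 0. The lists were drawn up with earlier results of these data known.

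Markers of cell types moved with the groups beside these values. Over all genes tested, 5.02% were called. Of 12 excitatory neuron markers 3 fell (Nrgn, Itpka and Cux2), with a summed level of 7097 to 7894 CPM in sham and 5002 to 6931 CPM in SNI, lowest in SNI replicate 2. All 10 striatal neuron markers had a positive log2 fold change, and 0 passed in edgeR. At an unadjusted p under 0.05, 6 were higher, where 10.3% of all genes tested were. Their sum was 253 to 502 CPM in sham and 377 to 901 CPM in SNI, with 901 and 890 CPM in SNI replicates 2 and 4, the libraries with the lowest and highest SNI sums of the Fos, Jun and Egr genes. Among 10 microglia markers 2 rose (Tmem119 and P2ry12) and 1, Cx3cr1, fell as given above, and their sum was 444 to 535 CPM in sham and 448 to 709 CPM in SNI. Of the 10 markers each of GABAergic neurons, astrocytes, oligodendrocytes and endothelial and mural cells, 0 passed. Of 8 choroid plexus and ependymal markers 4 were tested and 2 rose (sum 5.25 to 7.40 CPM in sham and 10.7 to 15.5 CPM in SNI). Of 8 blood markers 5 were tested, 1 rose (Hba-a1) and 1 fell (Hba-a2, a near-identical copy, so the split of reads between them is uncertain), and their sum was 31.5 to 64.4 CPM in sham and 81.0 to 184 CPM in SNI. The part of these differences in the levels of the Fos, Jun and Egr genes was not tested. An edgeR fit with the striatal marker value as a covariate called 0 of the 10 and, of the 12 pathway genes above, Mapk3 (adjusted p = 0.0385). The covariate comes from these same libraries and its markers were all higher in SNI, so the fit cannot separate it from group. That fit called 9 higher and 21 lower genes in all, against 299 and 399 without the covariate. All 12 pathway genes kept their direction in it, which is no test of tissue composition. Log2 fold changes there were 0.76 for Mapk3, -0.84 for Bdnf, -0.88 for Nptx2, -0.76 for Vgf, 0.75 for Sik1, -0.49 for Dusp14 and 0.72 for Cyr61, with adjusted p for the last 6 from 0.0545 (Nptx2) to 0.184 (Cyr61). The rest were Rps6ka5 at 0.47 (adjusted p = 0.173), Jdp2 at -0.38 (0.242), Gadd45b at 0.42 (0.254), Dlg4 at -0.31 (0.355) and Nab1 at 0.27 (0.433).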

How the data were processed

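Counts per gene, keyed by symbol, were deposited by the authors. The tools named by the submitters' processing notes are fastp, HISAT2 and StringTie, and the build is GRCm38. Versions, annotation and the way of counting are not given in the sources used here. Per the labels' protocols, libraries were poly(A)-selected with a dUTP step that preserves strand, but use of strand in counting is not stated there. No deposited count is below 1, so a gene at 0 in any library would have no row. Library totals were 14735602 to 19602487, and no same-group pair agreed within sampling noise (chi-square per degree of freedom 7.54 to 28.8).

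The deposited counts were fitted in edgeR 4.0.16 (R 4.3.3): filterByExpr kept 13911 genes, with TMM scaling and a robust two-sided quasi-likelihood F-test with group as the only term. Adjusted p-values are Benjamini-Hochberg over all genes tested, with a threshold of 0.05. The SE is the fold change over the square root of F, and 95% intervals use the test's degrees of freedom, unadjusted. CPM are TMM-scaled, and log2 CPM use a prior count of 2. The method was checked on simulated counts. Coordinates and exon lengths come from GENCODE M21 (GRCm38), which held 14661 of 14765 symbols, and promoters from RefSeq (GRCm38.p6).

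The 10 genes and all lists were chosen with earlier results of these data known. Named beside the 10 were called list genes and, in each list, those of smallest p, and the 6 genes most correlated with the mean profile and with Fos. Arc, Npas4, Nr4a1, Nr4a2 and Nr4a3 were chosen after their values were seen. Alternatives were RLE, upper-quartile and library-total scaling, 2 other filters, DESeq2 1.42.0, limma 3.58.1 voom with quality weights, a fit blocked on replicate number, leaving out each library or 2 pairs of SNI libraries, and a striatal marker covariate.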

Additional observations from a re-analysis of the deposited data

Results flagged for a closer look

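The summed level of the other AP-1 family genes was 524 CPM in Sham replicate 3 and 498 to 499 CPM in the other 3 sham libraries, a gap of 0.933 of the group's range (Dixon's limit for 4 samples is 0.829). Chance gives such a gap in about 1 of 20 groups, and 50 groups were looked at. None of the 10 Fos, Jun and Egr genes had a library that far from the rest of its group in either group, SNI replicate 4 included.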

How the results depend on the processing

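Over 19 alternatives, Fos, Fosb, Junb, Egr2 and Egr4 kept a positive log2 fold change and Egr3 a negative one in each. The count of Fos, Jun and Egr genes called higher, 0 as reported, became 1 with library totals as scaling (Fos, log2 fold change 0.37), 2 with limma voom (Fos 0.40, Fosb 0.62), and 0 to 2 when 1 library was left out (Fos 0.39 and Fosb 0.61 without SNI replicate 2, Egr2 0.64 without SNI replicate 1). The voom weight of SNI replicate 2 was 0.350 and that of SNI replicate 4 was 1.92. With the replicate block the count was 1 (Junb, log2 fold change 0.45, adjusted p 0.0390). The labels give both groups the numbers 1 to 4, but same-numbered libraries did not deviate together (r = -0.15 to -0.0056), so the numbers were not taken as pairs, and no library correlated best with its own number. The block gave 212 higher and 306 lower genes over all. No Fos, Jun or Egr gene was called lower at an adjusted p under 0.05 in any of the 19. With 1 library left out, log2 fold changes ran from 0.23 to 0.39 for Fos, 0.35 to 0.61 for Fosb, 0.33 to 0.56 for Junb, 0.32 to 0.65 for Egr2, -0.041 to 0.16 for Fosl2 and -0.083 to 0.17 for Jund.

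Values near 0 changed sign. Egr1 was -0.0014 with RLE, -0.0041 with DESeq2, -0.0022 with the replicate block, -0.22 without SNI replicates 2 and 4, -0.15 with the striatal covariate, and -0.14 to 0.11 when 1 library was left out, with -0.021, -0.087 and -0.0032 without Sham replicate 2, Sham replicate 4 and SNI replicate 2. Jund was -0.0022 with the covariate, and -0.028, -0.0032 and -0.083 without Sham replicate 4, SNI replicate 3 and SNI replicate 4. Fosl2 was -0.041 without SNI replicate 4 and -0.089 without SNI replicates 2 and 4. Jun was 0.042 without SNI replicates 2 and 3. None of these passed, and the cause was not tested.

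Over all genes, 299 higher and 399 lower became 503 and 650 with DESeq2, 173 and 265 without SNI replicates 2 and 4, 50 and 128 without SNI replicates 2 and 3, 9 and 21 with the covariate, and 90 to 405 and 168 to 453 when 1 library was left out. Without Sham replicate 3 they were 90 and 168, and without SNI replicate 3 they were 98 and 199. The higher count was 171 without Sham replicate 1 and 142 without Sham replicate 2. The pathway lists together had 6 higher and 6 lower genes. This became 10 lower with DESeq2 and with voom, 2 and 1 without SNI replicates 2 and 3, and 1 and 0 with the covariate, and ran from 4 to 8 and from 4 to 9 when 1 library was left out. Fits with libraries left out have fewer samples. The 95% intervals above are unadjusted, and Fos, Fosb, Junb and Egr2, whose intervals lie above 0, were not called after adjustment, so a difference had to be larger than those intervals show. The lowest count of the 10 genes in any library was 164 reads (Egr2, Sham replicate 1), and the part of depth was not tested.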
